A study of Homo sapiens with 14 samples.

Results

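Serum-starved Panc-1 cells, a human pancreatic cancer cell line, were compared after 5 h and after 1 h with the growth factor EGF at 50 ng/ml. The comparison was read across 11580 of the 23040 listed genes, namely those with a span of at least 400 bp and at least 1 RPKM (reads per kilobase of transcript, scaled to the reads of the library) in either library. Of the other genes, 1560 had a span under 400 bp and 9900 stayed under 1 RPKM in both libraries. The background for time was the pair of Panc-1 libraries treated for 5 h and 1 h with 1 µg/ml ANG, the secreted ribonuclease angiogenin. Untreated (mock) Panc-1 cells, the 24 h libraries of both ligands, and the EGF libraries of a second pancreatic cancer line, AsPC-1, are used as side values. Each of the 14 libraries of the series, made from total RNA, is the only one of its group, so no difference within Panc-1 carries a test. A level below is an RPKM value, a difference is log2(RPKM + 1) at 5 h minus that at 1 h, and 2-fold means a difference of at least 1 on that scale, which understates the fold of genes near 0.

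Epidermal growth factor binds the receptor EGFR, which signals through RAS to the MAP kinases ERK1 and ERK2. Within minutes this activates transcription of immediate-early genes, whose promoters already carry factors such as SRF and CREB and need no new protein. Many of their products are transcription factors of the AP-1, EGR and NR4A families, and their RNAs are short-lived. Delayed genes follow, among them phosphatases and adaptors that dampen the same pathway, and adhesion and protease genes linked to cell movement.

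EGF at 5 h and EGF at 1 h were estimated at 11.1 and 15.05 M reads, so that 1 RPKM in 2 kb of transcript stood for about 22.2 and 30.1 reads. ANG at 5 h and at 1 h were estimated at 12.95 and 16.7 M reads. Genes under 400 bp took 11.2% of the reads in EGF at 5 h and 5.11% in EGF at 1 h. ANG was nearly even at 11.4% at 5 h and 10.0% at 1 h. The median difference over all genes compared was -0.11 under EGF and -0.03 under ANG. Unless centring is stated, the EGF differences below are not corrected for that median. How much of it enters the difference of any single gene was not tested. The epithelial keratins KRT18 (350 RPKM at 5 h, 334 at 1 h) and KRT8 (267 and 294 RPKM) and the mesenchymal filament vimentin (VIM, 2497 and 2206 RPKM) were abundant in both EGF libraries. The 8 epithelial markers summed to 1014 RPKM at 5 h and 1031 RPKM at 1 h, with 1 of 8 under 1 RPKM. The 4 mesenchymal markers summed to 2525 and 2239 RPKM, with 1 of 4 under 1 RPKM. VIM held most of that sum in both EGF libraries. All 5 endothelial markers and all 8 acinar and islet markers were under 1 RPKM in both, with sums of 0.11 RPKM at 5 h and 0.06 RPKM at 1 h for the endothelial list and 0 in both for the acinar and islet list. Fibroblast markers summed to 4.68 RPKM at 5 h and 4.11 RPKM at 1 h, with 7 of 8 under 1 RPKM, and leukocyte markers to 49.8 and 44.2 RPKM, with 8 of 10 under 1 RPKM and CD68 holding most of the sum.

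At 5 h of EGF a compact set of transcription factor genes stood lower than at 1 h, many of them near their mock level, while few genes stood higher. At least 2-fold lower at 5 h were 28 genes (0.242% of those compared), and at least 2-fold higher were 13 genes (0.112%). Under ANG, over the same genes, 1 gene was 2-fold lower (0.00864%) and 1 was 2-fold higher (0.00864%). The standard deviation of the difference over genes was 0.215 under EGF and 0.139 under ANG. With each library centred on its median, the EGF counts were 18 lower and 14 higher. With a 1.5-fold rule, 160 genes were lower and 50 higher under EGF, and 16 were lower and 18 higher under ANG. No gene was in both 2-fold sets: the ANG pair were BCYRN1, a small brain cytoplasmic RNA (16.3 RPKM at 5 h and 6.32 at 1 h, a difference of 1.24), and the zinc finger gene ZNF726 (1.97 and 4.97 RPKM, a difference of -1.01). Across genes, which are not independent replicates, the EGF and ANG differences had a Pearson r of 0.152 and a Spearman rho of 0.174.

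**Figure D1:**
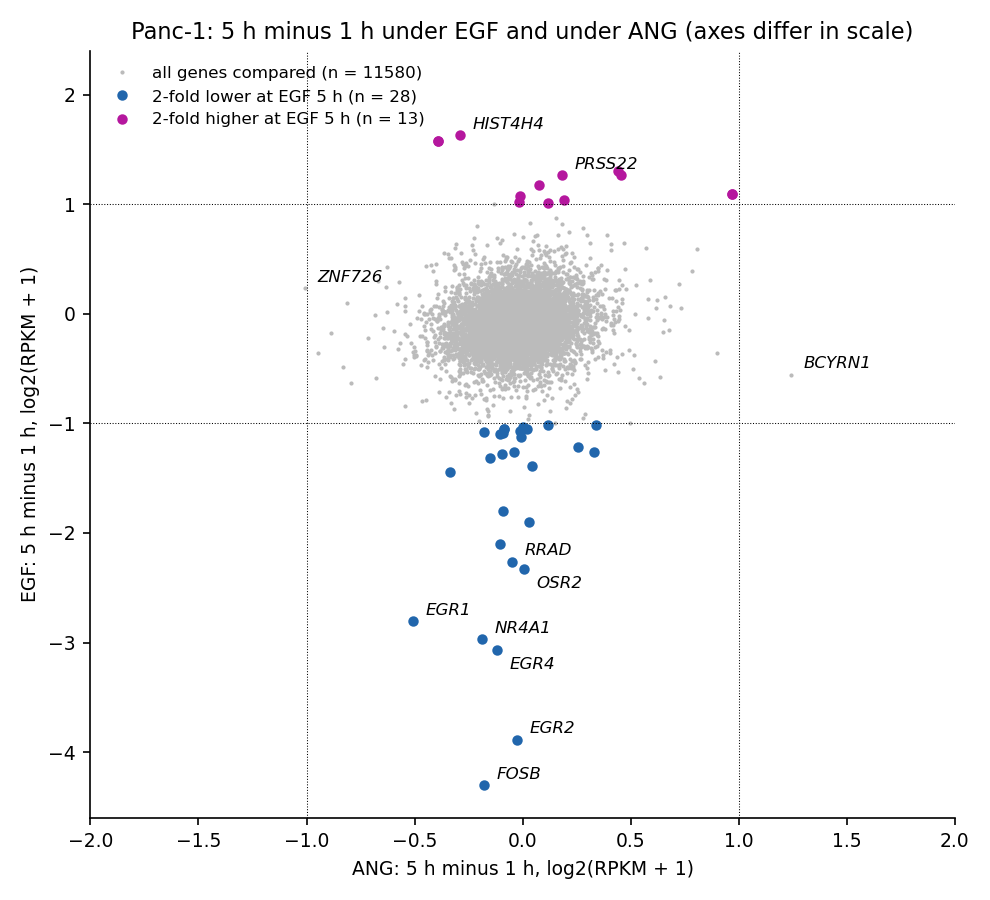
Each point is 1 of 11580 genes, with the 5 h minus 1 h difference in log2(RPKM + 1) under ANG on the x axis and under EGF on the y axis (1 library per condition, dotted lines at 2-fold). The 28 lower genes extend to -4.30 on the EGF axis and lie between -0.51 and 0.34 on the ANG axis.

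The lowest difference of all was that of FOSB, an AP-1 transcription factor subunit (hg19 chromosome 19, 45971253 to 45978437, plus strand). It had 0.64 RPKM after 5 h of EGF and 31.3 RPKM after 1 h, against 0.22 RPKM after 5 h and 0.38 RPKM after 1 h of ANG and 0.10 RPKM in mock cells. The EGF 1 h library alone was high, 48.9-fold above EGF at 5 h, and the difference was -4.30 under EGF and -0.18 under ANG. FOS (chromosome 14, 75745481 to 75748937, plus strand), the founding member of the family, followed with 0.99 RPKM at 5 h and 5.95 RPKM at 1 h of EGF, a difference of -1.80. Under ANG it had 0.71 RPKM at 5 h and 0.82 at 1 h. At 24 h of EGF, FOSB was at 0.25 RPKM and FOS at 0.43 RPKM, close to their mock levels of 0.10 and 0.59 RPKM.

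All 4 genes of the EGR family of zinc finger transcription factors were in the lower set. EGR2 (chromosome 10, 64571756 to 64578927, minus strand) had 0.28 RPKM at 5 h and 17.9 RPKM at 1 h of EGF, a difference of -3.89. EGR4 (chromosome 2, 73518057 to 73520829, minus strand) had 0.11 and 8.30 RPKM (-3.07), and EGR3 (chromosome 8, 22545174 to 22550815, minus strand) had 0.08 and 3.64 RPKM (-2.10). These 3 genes were under 0.3 RPKM in mock cells, in both ANG libraries and at 5 h and 24 h of EGF, so that EGF at 1 h was the sole Panc-1 library in which they reached 1 RPKM. EGR1 (chromosome 5, 137801181 to 137805004, plus strand) had 3.30 RPKM at 5 h and 29.1 RPKM at 1 h of EGF, a difference of -2.81. Its ANG levels of 0.75 RPKM at 5 h and 1.49 RPKM at 1 h gave -0.51, the lowest ANG difference of any gene in the set, and mock cells had 1.32 RPKM.

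The orphan nuclear receptors NR4A1 and NR4A3, immediate-early transcription factors without a known hormone, behaved likewise. NR4A1 (chromosome 12, 52445191 to 52453287, plus strand) had 0.57 RPKM at 5 h and 11.3 RPKM at 1 h of EGF (-2.97), and 0.23 and 0.40 RPKM after 5 h and 1 h of ANG. NR4A3 had 0.08 RPKM at 5 h and 1.59 RPKM at 1 h of EGF (-1.26). Both were at or under 1 RPKM in the 6 other Panc-1 libraries.

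**Figure D2:**
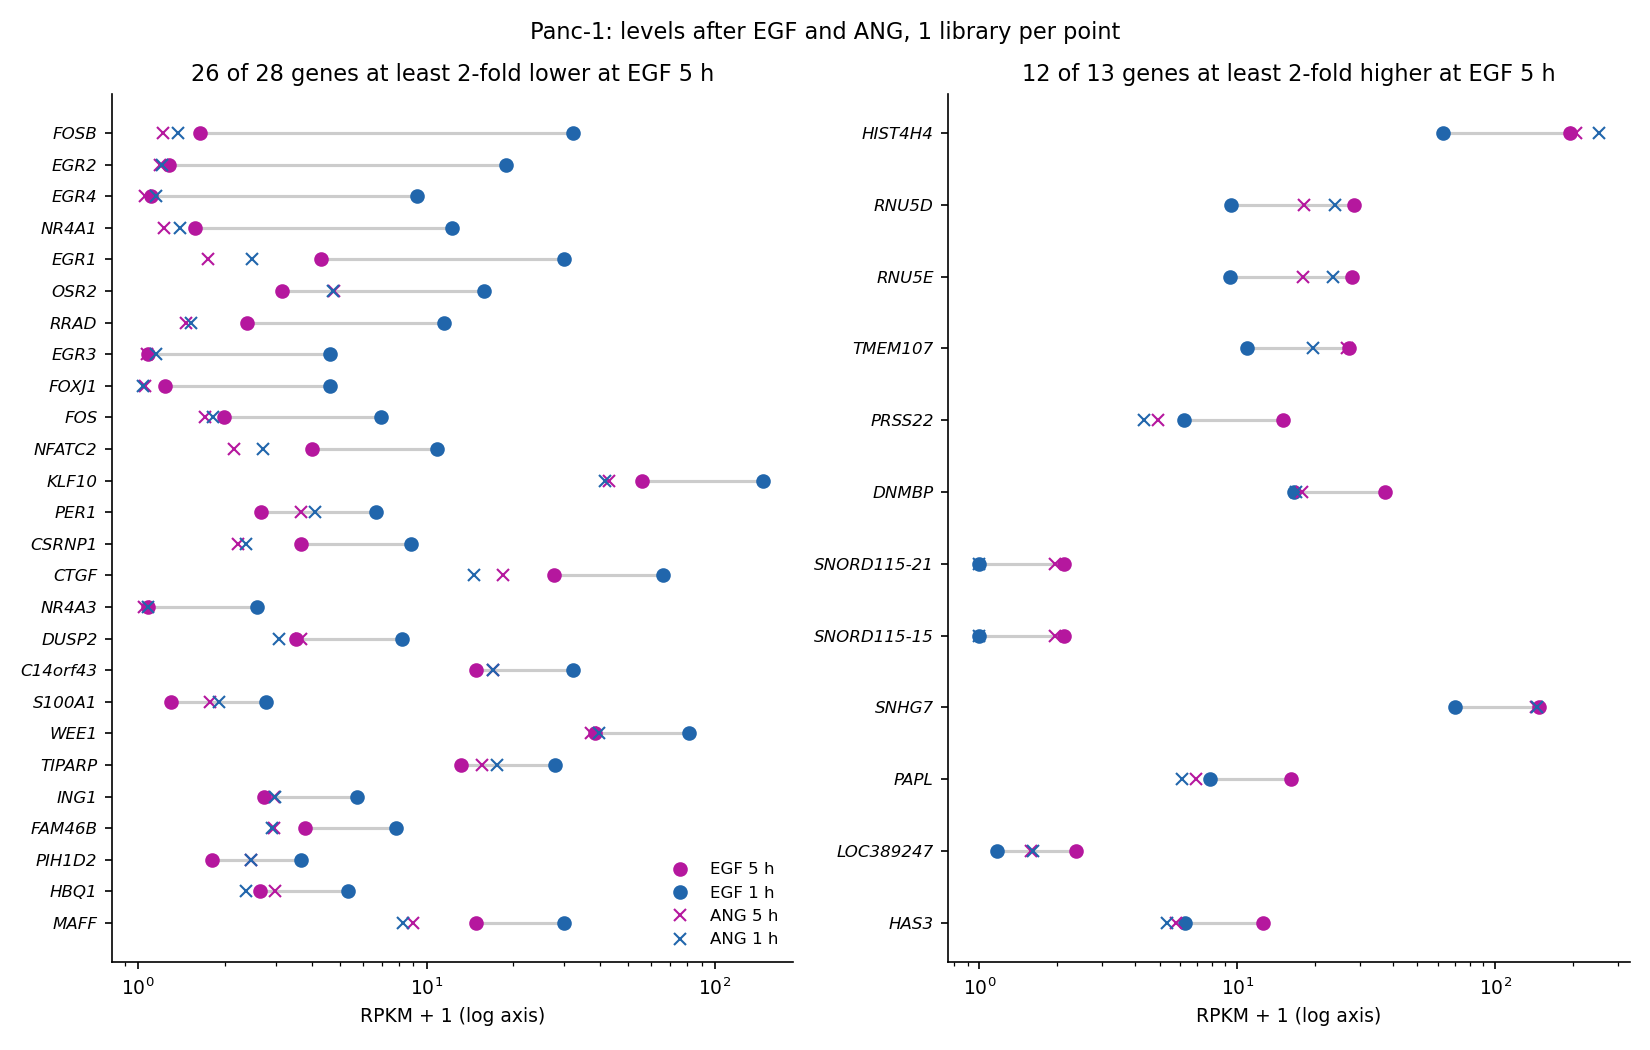
Level (RPKM + 1, log axis) of 26 of the 28 genes at least 2-fold lower (left) and 12 of the 13 at least 2-fold higher (right) at EGF 5 h than at EGF 1 h, with 1 library per point and a grey line joining the EGF pair. The ANG 5 h and 1 h crosses lie close together for the lower genes, at or below the EGF 5 h point for FOSB, EGR2 and EGR1, and near the EGF 5 h point for SNHG7, TMEM107 and HIST4H4 on the right.

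The promoters of FOSB, EGR2, EGR4 and EGR1 are shown because these genes had 4 of the 5 lowest differences and binding sites of SRF and of CREB family proteins are the textbook inputs of such genes. NR4A1, the other of these 5 genes, has 2 listed windows that hold neither motif and are not shown. The sequences are the 250 bases before the annotated start in RefSeq (GRCh38.p14), 5′ to 3′ on the gene's strand, at chr19:45467746-45467995 (plus), chr10:62816367-62816616 (minus, 1 of 3 listed starts), chr2:73293549-73293798 (minus) and chr5:138465229-138465478 (plus). For EGR2 the start shown is that whose window held the most matches to these motifs, so its choice depended on them. Capitals mark the CArG box bound by SRF (in these windows CCATATATGG or CCATATTAGG) and the CREB half-site TGACG, or its complement CGTCA where the site lies on the other strand.
FOSB: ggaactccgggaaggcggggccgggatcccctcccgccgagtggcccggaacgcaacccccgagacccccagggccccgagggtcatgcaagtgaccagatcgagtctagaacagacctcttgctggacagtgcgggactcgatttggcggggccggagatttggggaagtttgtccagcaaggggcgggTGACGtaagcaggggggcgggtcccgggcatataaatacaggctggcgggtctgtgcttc
EGR2: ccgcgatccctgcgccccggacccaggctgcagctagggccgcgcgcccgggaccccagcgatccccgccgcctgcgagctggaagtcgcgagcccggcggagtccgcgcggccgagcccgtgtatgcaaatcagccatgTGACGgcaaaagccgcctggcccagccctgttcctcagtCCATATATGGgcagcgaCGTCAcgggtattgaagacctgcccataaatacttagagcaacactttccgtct
EGR4: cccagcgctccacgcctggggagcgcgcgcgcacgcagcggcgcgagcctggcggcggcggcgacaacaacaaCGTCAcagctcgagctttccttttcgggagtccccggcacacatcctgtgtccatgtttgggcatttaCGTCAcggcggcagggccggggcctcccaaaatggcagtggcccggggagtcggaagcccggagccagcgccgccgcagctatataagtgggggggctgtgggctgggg
EGR1: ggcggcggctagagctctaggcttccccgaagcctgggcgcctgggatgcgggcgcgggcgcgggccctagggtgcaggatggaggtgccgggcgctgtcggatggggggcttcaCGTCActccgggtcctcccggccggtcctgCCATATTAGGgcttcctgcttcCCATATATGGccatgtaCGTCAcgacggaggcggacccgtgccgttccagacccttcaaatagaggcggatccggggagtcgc

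In these windows EGR1 held CArG boxes that begin 105 and 83 bases before the start, and EGR2 held 1 that begins 71 bases before it. The half-site TGACG began 60 bases before the start of FOSB, and EGR1, EGR2 and EGR4 each held 2 copies. Of the 28 lower genes, 19 had a RefSeq promoter entry, and 13 of these (68.4%) held TGACG on either strand while 3 (15.8%, EGR1, EGR2 and C14orf43) held a CArG box. Over the 9284 genes compared that had an entry, 36.6% held TGACG and 1.41% a CArG box. Over all 35116 promoter windows of the table, each of the same length, the shares were 21.2% and 1.16%. Of the 13 higher genes, 6 had an entry, of which 1 held TGACG and 0 held a CArG box. The AP-1 site TGANTCA was in 1 of the 19 matched lower genes and in 5.76% of the genes compared, and the full CREB site TGACGTCA, which contains TGACG, in 1 of 19 and 3.53%. A gene with several listed starts counts once if any of its windows holds the letters, and a match describes the letters alone.

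Other regulators in the lower set stood higher in untreated cells. KLF10, a Krüppel-like repressor also induced by TGF-beta, had 54.9 RPKM at 5 h and 145 RPKM at 1 h of EGF (-1.39), with 46.5 RPKM in mock cells and 41.8 and 40.5 RPKM after 5 h and 1 h of ANG. CSRNP1, a nuclear protein first described as induced by AXIN1, had 2.66 and 7.87 RPKM (-1.28), and the small MAF protein MAFF had 13.9 and 29.1 RPKM (-1.01). Both were back within 1 RPKM of mock at 24 h of EGF (1.78 RPKM and 2.18 in mock for CSRNP1, 9.26 and 8.73 for MAFF). PER1, a circadian repressor with a cyclic AMP responsive promoter, had 1.67 RPKM at 5 h and 5.66 RPKM at 1 h (-1.32), and its level at 5 h lay below the 2.56 RPKM of mock cells. NFATC2, a calcium-regulated transcription factor, had 3.01 and 9.89 RPKM (-1.44), with 1.15 and 1.71 RPKM after 5 h and 1 h of ANG.

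A second kind of gene in the set is less often counted among the immediate-early genes. OSR2, a zinc finger factor of limb and palate development, had 2.15 RPKM at 5 h and 14.8 RPKM at 1 h of EGF (-2.33), and its ANG levels did not differ between times (3.76 RPKM at 5 h, 3.74 at 1 h). RRAD, a small GTPase of muscle, had 1.39 and 10.5 RPKM (-2.26), and FOXJ1, the regulator of motile cilia, had 0.24 and 3.62 RPKM (-1.90). All 3 were high in EGF at 1 h alone: FOXJ1 did not exceed 0.06 RPKM in mock, ANG or EGF 24 h cells, and RRAD did not exceed 0.52 RPKM there. In AsPC-1 the same genes had differences of -0.28 for OSR2, 0.06 for RRAD and -0.01 for FOXJ1, at levels of at most 1.09 RPKM in its EGF 5 h and 1 h libraries.

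Genes that act outside the nucleus or in the cell cycle were also in the set. CTGF, a secreted matricellular target of YAP and SRF, had 26.6 RPKM at 5 h and 65.3 RPKM at 1 h (-1.26), and under ANG the order was the other way (17.3 RPKM at 5 h, 13.6 at 1 h, 0.33). WEE1, the kinase that restrains CDK1, had 37.3 and 80.2 RPKM (-1.08), and the 5 h level was near both ANG libraries (36.2 RPKM at 5 h, 38.5 at 1 h) and above mock (20.9 RPKM). DUSP2, a nuclear phosphatase of ERK, had 2.54 and 7.20 RPKM (-1.21), and its 5 h level lay below mock (4.29 RPKM). The other members described had differences from -1.12 to -1.02: C14orf43 (13.8 RPKM at 5 h, 31.2 at 1 h), TIPARP, an ADP-ribosyltransferase induced by the aryl hydrocarbon receptor (12.2 and 26.9 RPKM), the chromatin reader ING1 (1.74 and 4.76 RPKM), FAM46B (2.78 and 6.82 RPKM), S100A1 (0.30 and 1.78 RPKM), PIH1D2 (0.80 and 2.68 RPKM) and the globin gene HBQ1 (1.64 and 4.35 RPKM). At 5 h C14orf43, TIPARP, ING1, S100A1 and PIH1D2 lay below their mock levels of 25.0, 15.2, 1.94, 1.51 and 1.89 RPKM. FAM46B and HBQ1 lay above theirs (2.12 and 1.37 RPKM). With each library centred, 8 of the genes described (S100A1, WEE1, TIPARP, ING1, FAM46B, PIH1D2, HBQ1 and MAFF) had differences from -0.991 to -0.908 and were no longer past 2-fold. S100A1 overlaps S100A13 and PIH1D2 overlaps DLAT in the files, and whether strand was used in counting is not given in the sources used here. At the 2-fold line, MAFF (-1.01) and HBQ1 (-1.02) lay just inside, and UCN (0.58 RPKM at 5 h, 2.15 at 1 h) and the circadian repressor BHLHE40 (42.4 and 85.4 RPKM) just outside, both at -0.995.

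None of the 28 was 2-fold lower under ANG, where 0.00864% of all genes compared were. Their ANG differences ran from -0.51 to 0.34 with a median of -0.07, against an all-gene ANG median of -0.03. At 5 h of EGF, 10 of the 28 were under 1 RPKM, and at 24 h all 28 lay within 2-fold of mock, as did 99.8% of all genes compared.

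**Figure D3:**
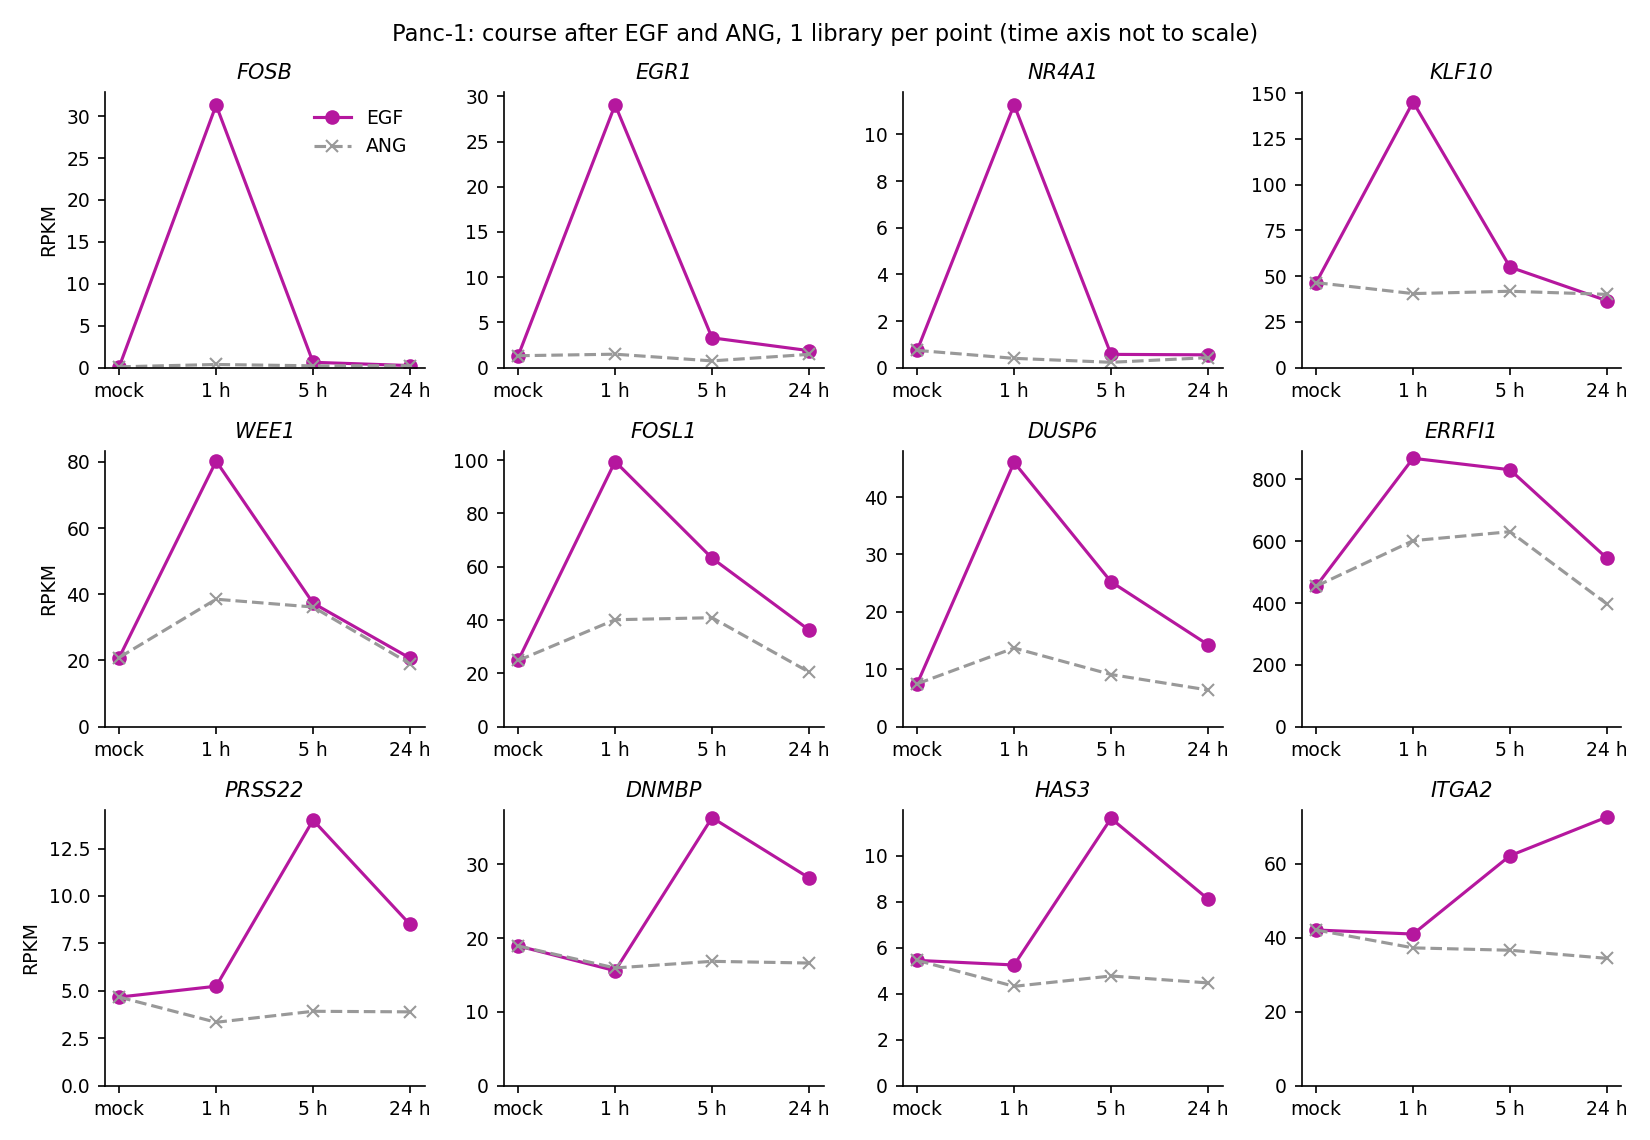
RPKM (y axis, from 0) of 12 genes in mock cells and after 1, 5 and 24 h of EGF (filled circles) or ANG (crosses), 1 library per point. FOSB, EGR1, NR4A1 and KLF10 are high at 1 h of EGF alone, ERRFI1 stands at 831 RPKM at 5 h and 868 RPKM at 1 h of EGF, and PRSS22, DNMBP and HAS3 are highest at 5 h of EGF.

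Described by list, the immediate-early genes stood lowest. Of 24 measured, 11 were 2-fold lower and 0 higher at 5 h of EGF. Of all genes compared, 0.242% were 2-fold lower and 0.112% higher. The list had a median difference of -0.85 (range -4.30 to -0.11), and all 24 lay below the all-gene median of -0.11. Under ANG the same list had a median of -0.07 and 0 genes past 2-fold, where 0.00864% of all genes compared were lower and 0.00864% higher. Some members abundant in mock cells stood above mock at both times: JUN had 70.8 RPKM at 5 h and 100 RPKM at 1 h (-0.50, 27.1 RPKM in mock), FOSL1 had 63.2 and 99.5 RPKM (-0.65, 24.8 in mock), ATF3 had 54.0 and 104 RPKM (-0.93, 12.0 in mock), and MYC had 99.4 and 114 RPKM (-0.20, 55.2 in mock). The AP-1 and small MAF list shares FOS, FOSB, FOSL1, JUN, JUNB, ATF3 and MAFF with it. That list had 3 of 12 lower and 0 higher, beside the same all-gene shares of 0.242% and 0.112%, and a median of -0.57. Within AP-1, FOSB and FOS were thus 2-fold lower, while FOSL2 (29.5 and 35.7 RPKM, -0.27) and JUND (31.6 and 44.9 RPKM, -0.50) were not.

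The feedback genes of the pathway were mostly level between the times. Of 21 phosphatases and inhibitors, 1 was 2-fold lower under EGF (DUSP2) and 0 were higher. Among all genes compared, 0.242% were lower and 0.112% higher. The median of the list was -0.18 under EGF and -0.08 under ANG. ERRFI1, the EGFR inhibitor also called MIG6, had 831 RPKM at 5 h and 868 RPKM at 1 h of EGF (-0.06), against 631 and 602 RPKM at 5 h and 1 h of ANG and 454 RPKM in mock cells. DUSP1, a nuclear MAP kinase phosphatase, had 79.8 and 76.7 RPKM (0.06), and SPRY4, a Sprouty inhibitor of RAS signalling, had 32.6 and 39.6 RPKM (-0.27), each more than 2-fold above its mock level of 33.9 and 13.9 RPKM. The ERK phosphatases DUSP6 (25.2 and 46.0 RPKM, -0.84) and DUSP5 (56.2 and 91.1 RPKM, -0.69) were lower at 5 h but within 2-fold, and DUSP6 was also lower at 5 h of ANG (9.09 and 13.7 RPKM, -0.54). SPRY1 had opposite signs under the ligands, 9.81 and 7.02 RPKM under EGF (0.43) and 8.63 and 13.9 RPKM under ANG (-0.63).

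Further lists of regulators and their targets held 1 called gene each, where 0.242% of all genes compared were 2-fold lower and 0.112% higher. Each count rests on that single gene. Krüppel-like factors had 1 of 12 lower (KLF10) and a median of -0.20, circadian clock genes 1 of 14 lower (PER1) and a median of -0.34, and SRF and YAP targets 1 of 21 lower (CTGF) and a median of -0.19. In the clock list PER2 (4.57 RPKM at 5 h, 9.12 at 1 h, -0.86), DBP (0.65 and 2.05 RPKM, -0.89) and ARNTL (1.63 and 3.12 RPKM, -0.65) were the next lowest after BHLHE40, at 0.20, -0.06 and 0.10 under ANG. The list's ANG median was 0.00.

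Lists of inflammatory, metabolic and growth genes had 0 members past 2-fold, where 0.242% of all genes compared were lower and 0.112% higher. The NF-kB list had a median of -0.23 over 15 genes, with REL at 4.38 RPKM at 5 h and 8.44 RPKM at 1 h (-0.81) and the inhibitor NFKBIA at 87.5 and 129 RPKM (-0.55). Chemokines and cytokines had a median of -0.24 over 16, with TNF at 1.39 and 3.16 RPKM (-0.80) and LIF at 50.6 and 64.98 RPKM (-0.35), and RNA decay factors -0.15 over 16, the lowest being the antiproliferative gene TOB1 (22.1 and 43.1 RPKM, -0.93) and the RNase ZC3H12A (9.17 and 17.6 RPKM, -0.87). Cholesterol synthesis genes had a median of -0.23 over 24 under EGF and -0.15 under ANG, with HMGCS1 at 27.8 RPKM at 5 h and 48.4 RPKM at 1 h (-0.78). Medians for ribosome biogenesis (38 genes, -0.06), ribosomal proteins (36, -0.05), the MYC network (10, -0.13), the unfolded protein response (18, -0.10), ATF4 targets (22, -0.08), heat shock genes (15, -0.15), fatty acid synthesis (12, -0.21), FOXO and insulin pathway genes (16, -0.23), p53 targets (22, -0.18), the BCL2 family (13, 0.00), interferon-stimulated genes (25, -0.10), glycolysis and hypoxia genes (22, -0.08), NRF2 and metallothionein genes (16, -0.06), TGF-beta, BMP and ID genes (20, 0.05), epithelial-mesenchymal transition regulators (5, -0.25) and CDK inhibitors (5, -0.03) lay within 0.2 of the all-gene median.

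Cell cycle genes differed little in Panc-1 between the times. The G1/S and replication list had a median of -0.19 and the G2/M list -0.24 over 30 genes each. Neither had a gene past 2-fold, where 0.242% of all genes compared were lower and 0.112% higher. The mitotic kinase CDK1 had 41.9 RPKM at 5 h and 53.9 RPKM at 1 h (-0.36), against 47.7 and 52.0 RPKM at 5 h and 1 h of ANG, 18.2 RPKM at 24 h of EGF and 12.996 RPKM in mock cells. Summed over the G2/M list, the level was 1735 RPKM at 5 h and 2047 RPKM at 1 h of EGF and 1995 and 2064 RPKM at 5 h and 1 h of ANG, against 759 and 615 RPKM at 24 h of EGF and ANG and 692 RPKM in mock cells. The mock and 24 h libraries thus stood apart from the 1 h and 5 h libraries under both ligands, and the labels give no time for mock. In AsPC-1 the EGF medians of the same lists were -0.89 and -0.99, with 14 and 15 genes 2-fold lower, where 0.812% of all genes compared were 2-fold lower and the all-gene median was 0.01. The difference between the lines was not tested, since each line has 1 library per time.

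**Figure D4:**
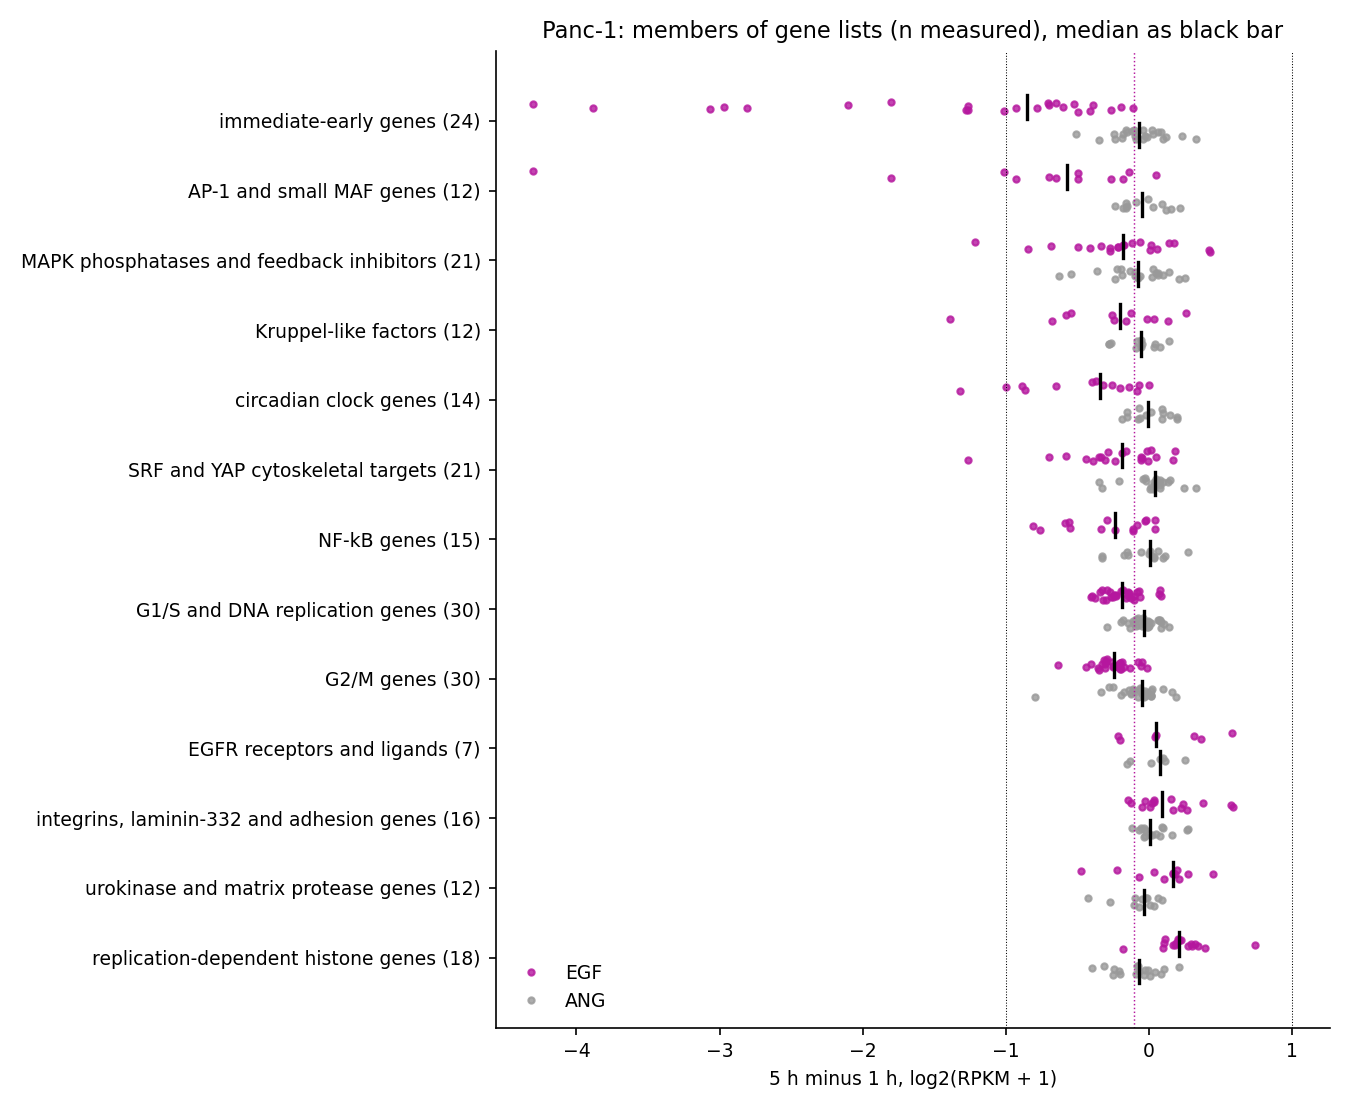
Difference at 5 h minus 1 h in log2(RPKM + 1) for each measured member of 13 gene lists, EGF above and ANG below within each row, with black bars at the medians and a dotted coloured line at the EGF all-gene median of -0.11. The immediate-early row reaches -4.30 under EGF and -0.51 under ANG, and the histone, urokinase and integrin rows have EGF medians above 0.

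The genes higher at 5 h were fewer and more mixed. PRSS22, a secreted serine protease of epithelia also called tryptase epsilon, had 13.997 RPKM at 5 h and 5.24 RPKM at 1 h of EGF (1.26), against 3.92 and 3.34 RPKM at 5 h and 1 h of ANG. DNMBP, a guanine nucleotide exchange factor for CDC42 at cell junctions, had 36.3 and 15.6 RPKM (1.17), against 16.8 and 15.9 RPKM under ANG. HAS3, a hyaluronan synthase, had 11.6 and 5.25 RPKM (1.01), and PAPL, an acid phosphatase gene, had 15.2 and 6.87 RPKM (1.04). In all 4 the EGF 5 h library stood above mock, EGF 1 h and the 3 ANG libraries, and at 24 h of EGF the levels were 8.50 RPKM for PRSS22, 28.1 for DNMBP, 8.12 for HAS3 and 19.1 for PAPL. DNMBP overlaps the noncoding gene NCRNA00093 and HAS3 overlaps CHTF8 (27.4 RPKM at 5 h, 31.3 at 1 h) in the files. LOC389247 was also in the set with 1.37 and 0.17 RPKM (1.02), below its 1.48 RPKM in mock cells.

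Most of the other higher genes were small RNAs, a histone gene, or genes that were low in the 2 libraries with the smallest share of short-gene reads. SNHG7, which hosts the small nucleolar RNAs SNORA17 and SNORA43, had 147 RPKM at 5 h and 69.0 RPKM at 1 h of EGF (1.08), but mock cells with 6.22% of reads in short genes had 66.0 RPKM and ANG at 1 h with 10.0% had 144 RPKM. The U5 small nuclear RNA entries RNU5D and RNU5E, which overlap each other and several coding genes, had 27.3 and 8.49 RPKM and 26.9 and 8.35 RPKM (both 1.57 to 1.58). Their listed spans of 245256 and 245257 bp, nearly the same stretch, take these small RNA entries past the 400 bp rule, and they count as 2 genes. TMEM107, a protein of the ciliary transition zone, had 26.1 RPKM at 5 h and 9.96 RPKM at 1 h (1.30). For these 4 genes EGF at 1 h and mock, the libraries with the lowest short-gene shares, were the lowest 2 of the 7 Panc-1 libraries. HIST4H4 (194 RPKM at 5 h, 61.9 at 1 h, 1.63) was high in ANG at 1 h (251 RPKM) and 5 h (205 RPKM) too, and low at 24 h of either ligand. SNORD115-15 and SNORD115-21 share coordinates and had 1.13 RPKM at 5 h and were listed at 0 at 1 h, where 1.13 RPKM is the value of 1 read in 80 bases at that depth. The part of the short-gene share in these differences was not tested.

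**Figure D5:**
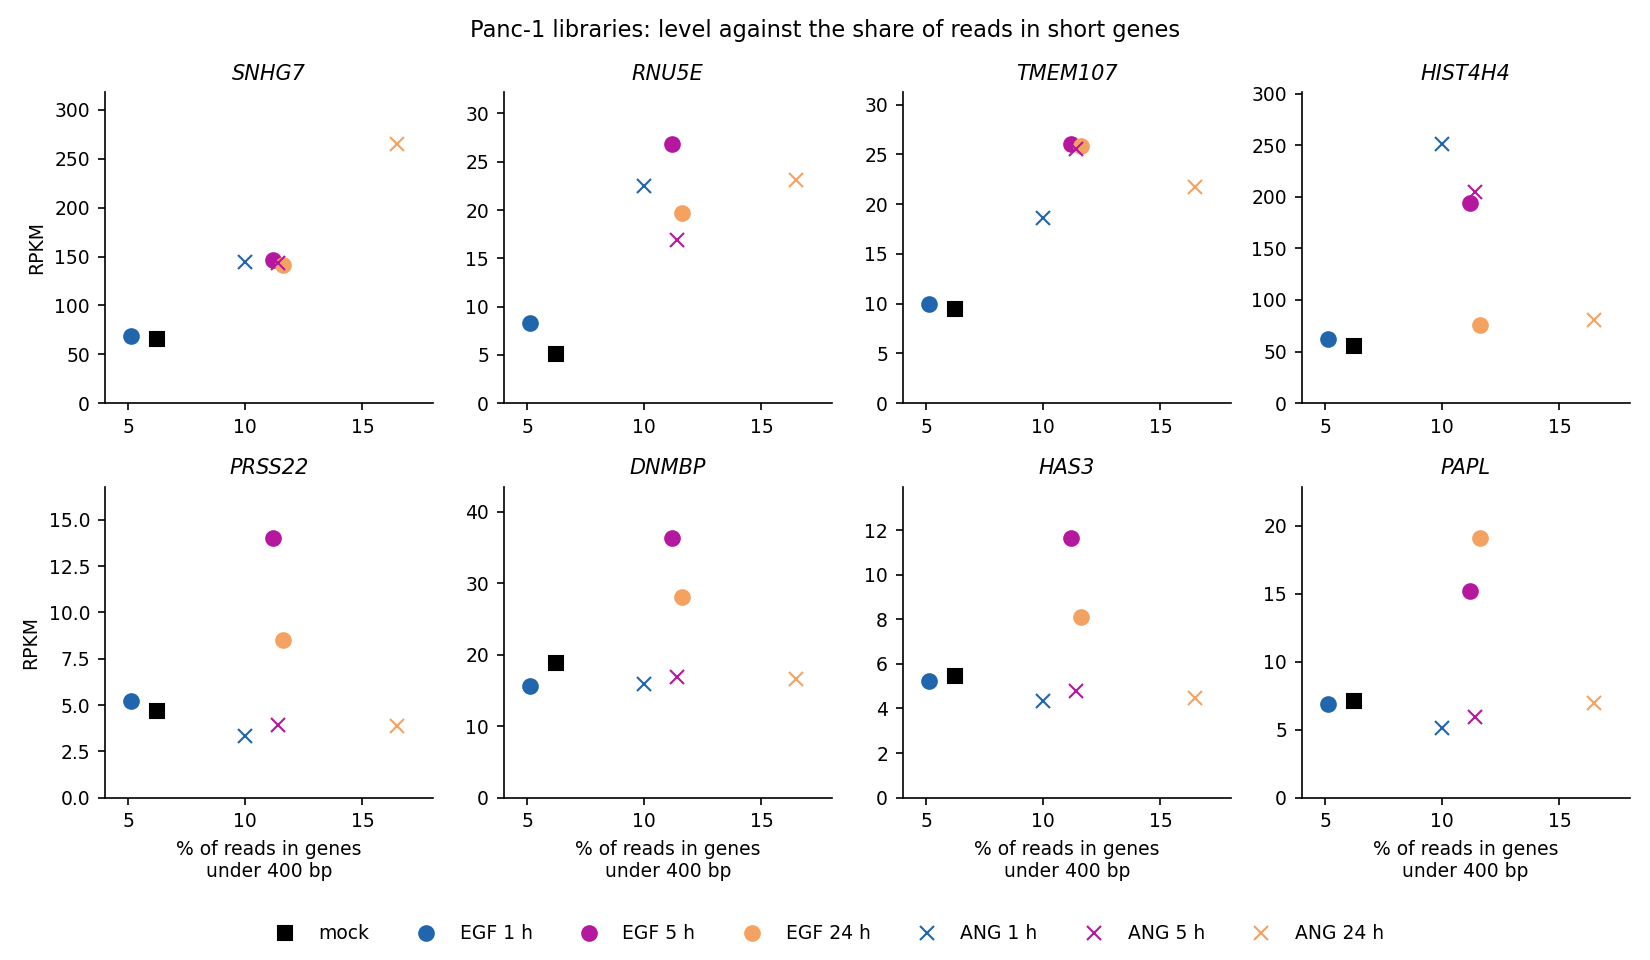
Level in RPKM (y axis, from 0) against the percentage of reads in genes under 400 bp (x axis) for 8 genes higher at 5 h of EGF, with 1 point for each of the 7 Panc-1 libraries. SNHG7, RNU5E and TMEM107 are low in EGF 1 h (5.11%) and mock (6.22%) and higher in the other 5 libraries, whereas PRSS22, DNMBP and HAS3 are highest in EGF 5 h, PAPL is highest in EGF 24 h, and these 4 genes lie at or below mock in all 3 ANG libraries.

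At the upper 2-fold line, HAS3 (1.01) and LOC389247 (1.02) lay just inside, and the small Cajal body RNA SCARNA2 (668 RPKM at 5 h, 334 at 1 h, 0.998) and the host gene SNHG10 (94.7 and 51.3 RPKM, 0.87) just outside. At 24 h of EGF, 7 of the 13 (53.8%) were within 2-fold of mock, against 99.8% of all genes compared. RNU5D, RNU5E, TMEM107, SNHG7 and PAPL were among those above that range.

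Short of 2-fold, the urokinase and integrin lists had medians above the all-gene median. The urokinase and matrix protease list had a median of 0.17 over 12 genes under EGF and -0.03 under ANG. The integrin, laminin-332 and adhesion list had 0.09 over 16 under EGF and 0.01 under ANG. Neither list had a member past 2-fold, where under EGF 0.242% of all genes compared were lower and 0.112% higher. ITGA2, the collagen-binding integrin subunit, had 62.1 RPKM at 5 h and 41.0 RPKM at 1 h of EGF (0.59), and 36.6 and 37.2 RPKM under ANG. The urokinase receptor PLAUR had 4.51 and 3.04 RPKM (0.45), while urokinase itself (PLAU, 184 and 159 RPKM, 0.21) differed less. In the same list ADAMTS15 (-0.47) and MMP2 (-0.22) were lower at 5 h, and 10 of the 12 genes lay above the all-gene median. BMP6, a ligand of the BMP receptors, had 23.1 and 13.7 RPKM (0.72). In its list of TGF-beta, BMP and ID genes, SMAD7 (-0.74), SMAD6 (-0.59), SKIL (-0.50) and ID1 (-0.50) were lower at 5 h. Of the 20 genes of that list, 12 lay above the all-gene median and 8 below it. Ligands of the EGFR family ran from NRG1 (6.16 and 3.78 RPKM, 0.58) and TGFA (2.95 and 2.07 RPKM, 0.36) through EREG (12.9 and 12.5 RPKM, 0.05) and HBEGF (10.2 and 9.87 RPKM, 0.05) to NRG2 (1.27 and 1.63 RPKM, -0.21). The anti-apoptotic gene BCL2A1 had 22.9 and 13.6 RPKM (0.72), whereas MCL1 of the same BCL2 family list was lower at 5 h (-0.52). DGKD, a diacylglycerol kinase, had 30.4 and 16.9 RPKM (0.81).

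The receptor and the G1 regulators named in such responses differed little. EGFR had 41.9 RPKM at 5 h and 33.4 RPKM at 1 h of EGF (0.32), and 38.7 and 32.4 RPKM under ANG (0.25). The 7 measured EGFR family receptors and ligands had a median of 0.05 under EGF and 0.08 under ANG. CDKN1A, the CDK inhibitor p21, had 90.1 and 70.2 RPKM under EGF (0.36) and 44.2 and 48.5 RPKM under ANG (-0.13). Cyclin D1 (CCND1) had 44.5 and 41.9 RPKM (0.08). Replication-dependent histone genes, whose RNAs mostly lack poly(A) tails, had a median of 0.21 over 18 genes under EGF and -0.07 under ANG. In that list HIST2H2BE had 23.1 RPKM at 5 h and 13.4 RPKM at 1 h (0.74). The same list had a median of -0.66 in AsPC-1, where the short-gene share was 5.29% at 5 h and 12.6% at 1 h of EGF.

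AsPC-1 shares no library with Panc-1 and offers the same contrast in a second line. There, over the same genes, 94 were 2-fold lower (0.812%) and 17 higher (0.147%), and across genes the EGF differences of the lines had a Pearson r of 0.0975 and a Spearman rho of 0.0577. Of the 28 Panc-1 lower genes, 7 were 2-fold lower in AsPC-1 (25.0% of the 28 and 7.45% of the 94), and 20 were below 0 there, as were 46.9% of all genes. The 7 were FOSB (1.48 RPKM at 5 h, 7.76 at 1 h), NR4A1 (11.2 and 61.0 RPKM), EGR1 (7.33 and 42.4 RPKM), EGR3 (0.49 and 2.86 RPKM), FOS (6.65 and 23.6 RPKM), CSRNP1 (4.13 and 15.3 RPKM) and WEE1 (2.22 and 6.47 RPKM). Of the 13 higher genes, 0 were 2-fold higher in AsPC-1, 4 were 2-fold lower, and 3 were above 0 there, as were 51.2% of all genes. BMP6 (1.14), ITGA2 (0.96) and S100A2 (1.35), which were under 2-fold in Panc-1 with S100A2 at 0.57, had larger differences there.

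With the lines as the repeats, limma on 12780 genes in an additive model of line and condition over all 14 libraries called 0 genes lower and 0 higher for EGF at 5 h against 1 h (0% each) at an adjusted p of 0.05, and 176 had an unadjusted p under 0.05. The smallest adjusted p among the lower genes was that of EGR3, with a log2 fold change of -1.74 ± 0.17 (SE) and an adjusted p of 0.0783. EGR1 (-2.59 ± 0.36) and CSRNP1 (-1.47 ± 0.19) both had an adjusted p of 0.293, and FOSB (-3.06 ± 0.58) and NR4A1 (-2.65 ± 0.46) one of 1.00. The genes higher in Panc-1 did not pass either, with PRSS22 at 0.83 ± 0.37 and an adjusted p of 1.00. Whether the EGF difference exceeded the ANG difference was tested in the same limma fit, which called 0 genes either way, with 48 at an unadjusted p under 0.05, and EGR3 had a value of -1.79 ± 0.25 and an adjusted p of 0.858. In a limma fit to the 8 libraries of 1 h and 5 h alone, 5 genes fell for time, namely FOS and NR4A1 (adjusted p = 0.00225 each), EGR1 (0.00369), EGR3 and CSRNP1 (0.00498 each). In that fit FOS (-1.89) and NR4A1 (-2.88) also fell more under EGF than under ANG, with an adjusted p of 0.0225 each. Without the AsPC-1 EGF 1 h library, FOSB had -4.30 for time and -4.22 against ANG. In that fit the EGF 1 h condition rests on its Panc-1 library, which is assumed to vary like the other conditions. The FOSB value for time there nearly repeats the Panc-1 difference by which FOSB was ranked, so it is no separate support. These p-values reflect how 2 lines differ, so a response of 1 line alone counts as spread, and nothing in the labels says that libraries came from separate cultures.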

How the data were processed

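Each deposited file lists 23040 genes with hg19 coordinates (build per the submitters' processing notes) and a log2 value of RPKM that the authors computed, per the file headers. No source used here names the aligner, counter, annotation or use of strand. Values were turned back to RPKM, with the lowest log2 value of -8.966 read as 0, and depth was estimated from the value of 1 read in genes of at most 150 bp. Differences were taken on log2(RPKM + 1) over genes with a span of at least 400 bp and 1 RPKM in either library, and a 2-fold difference was counted. The replicated test was that of limma (version 3.58.1, under R 4.3.3), with a variance trend and Benjamini-Hochberg adjustment at 0.05. On simulated data with 200 of 12780 genes changed, it recovered 43% of 2-fold and 83% of 4-fold changes for time and 21% and 51% against ANG, with 4.55% and 8.86% of calls false. Tables were made with Python 3.11.15 and pandas 2.3.3.

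Genes named were the 15 highest and 15 lowest differences, the 10 highest and lowest differences of EGF minus ANG, from each list up to 6 members by size of difference, 3 each way per limma test, and EGFR, FOS, EGR1, JUN, FOSL1, MYC, DUSP6, CCND1 and CDKN1A. Unnamed loci, open reading frames and small nucleolar RNAs were to be skipped. Some genes that were counted are not reported here by name. The other genes described of the 28 lower and 13 higher, and further list members given as examples, were named after their values were seen. The genes compared, the lists and the rule were chosen with earlier results of these data known. Alternatives were other pseudocounts, filters and scalings and leaving out libraries.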

Additional observations from a re-analysis of the deposited data

Results flagged for a closer look

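Of the 13 genes that were 2-fold higher at 5 h of EGF in Panc-1, 4 were 2-fold lower at 5 h in AsPC-1. The host gene SNHG7 had a difference of -1.59 in AsPC-1 (77.5 RPKM at 5 h, 236 at 1 h) and of 1.08 in Panc-1 (147 and 69.0 RPKM). TMEM107 had -1.32 in AsPC-1 and 1.30 in Panc-1. The U5 entries RNU5E and RNU5D, which overlap each other almost fully in the files but count separately among these 4, had -1.70 and -1.71 in AsPC-1 and 1.57 and 1.58 in Panc-1. The share of reads in genes under 400 bp differed between the times in the same directions, at 5.29% at 5 h and 12.6% at 1 h in AsPC-1 and 11.2% at 5 h and 5.11% at 1 h in Panc-1. The difference between the lines was not tested, since each line has 1 library per time, and the part of the short-gene share in it was not tested.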

How the results depend on the processing

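The Panc-1 EGF counts of 28 lower and 13 higher genes became 70 and 25 with a pseudocount of 0.1, 57 and 308 with no minimum span, 160 and 50 with a 1.5-fold rule, and 18 lower with each library centred. Without small RNA and histone genes and genes that hold a gene under 400 bp, an alternative chosen after seeing the data, 7 were higher. The ANG counts of 1 lower and 1 higher became 13 and 18 with a pseudocount of 0.1, 5 and 5 with 0.5, 46 and 53 with no minimum span, and 18 and 23 with 1.5-fold on genes filtered in ANG, and 0 were lower with a minimum of 5 RPKM, with centring or with RPKM rescaled to genes of 400 bp or more. Of 218 named genes, 32 moved with a pseudocount of 0.1 by more than 0.139, the standard deviation of the ANG differences over genes (FOSB to -5.41, EGR3 to -4.38), and those past 2-fold kept their direction with centring and that pseudocount. The limma counts of 0 became 2 lower and 2 higher for time and 3 higher against ANG with no minimum RPKM, all with a log2 fold change under 0.1 in size. They became 5 lower and 2 lower with the 1 h and 5 h libraries alone. The cause of these changes was not tested. Fits that left out 1 library at a time are not counted here, since a condition in them rests on 1 line. The limma fits hold the line as a term, so 5 h and 1 h are compared within lines. No paired analysis was possible because the labels number no replicates, so no block beyond the line could be set. At the EGF 5 h depth, genes under 1 RPKM rest on about 22.2 reads or fewer in 2 kb.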
